A study of Mus musculus with 9 samples.

Results

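This comparison covers 6 of the 9 RNA-seq libraries of the series: 3 of bone marrow neutrophils kept alone for 12 h and 3 of neutrophils sorted after 12 h together with PyMT-M cells. All came from wild type C57/B6 mice and were cultured in DMEM with 0.5% FBS, a low-serum medium. PyMT is the usual short form of the polyoma virus middle T antigen, an oncogene used to induce mouse mammary tumours, and the labels do not spell out the M. The remaining 3 libraries were neutrophils sorted after the same time with PyMT-N cells, and they enter below only where the co-cultures are set against each other. The design text states FACS sorting for the co-cultured neutrophils and does not state it for those alone, so co-culture and sorting cannot be told apart. Libraries of a group are labelled as biological replicates without being tied to separate animals, so p-values measure the spread between these libraries. Genes were divided by their mean level alone, in CPM, counts scaled to a common library total: 6866 of the 54532 genes of the table had 10 CPM or more alone and are called expressed, 42428 had under 1 CPM and are called near absent, and 5238 lay between. Of these, 6851 expressed, 1351 near absent and 3810 middle genes had enough counts to be tested. At the upper limit, Cecr2, just inside, had 10.01 CPM alone and 1.92 with PyMT-M cells, and Zfyve21, just outside, had 9.9985 and 34.5; at the lower limit, Mmp13, just above, had 1.01 and 3.15, and Zfp850, just below, had 0.9994 and 9.51.

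Neutrophils are short-lived granulocytes that leave the marrow already loaded with granule proteins, follow chemokine and formyl peptide gradients through G-protein-coupled receptors, and kill microbes with proteases and the phagocyte NADPH oxidase. Type I and type III interferons act through a complex with STAT2 and IRF9 that binds the interferon-stimulated response element in front of a common set of antiviral genes. Collagens, keratins and epithelial adhesion molecules are, by contrast, products of stromal and epithelial cells, and a marrow neutrophil makes little of them. Whether RNA of such genes in a sorted neutrophil library came from tumour cells or from the neutrophils was not tested.

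The libraries held 1641049 to 3180382 counts alone and 3269332 to 4307585 with PyMT-M cells. Genes expressed alone made up 97.7% ± 0.377 (SD, n = 3) of the counts alone and 90.7% ± 0.518 with PyMT-M cells. The share of genes near absent alone was 0.232, 0.2901 and 0.0882% in the alone libraries and 2.204, 2.52 and 2.32% in the PyMT-M libraries, and that of the middle class was 2.14, 2.29 and 1.76% and 6.64, 7.35 and 6.93%. These shares did not overlap between the groups, and they carry no test because the alone libraries defined the classes. The third alone library stood apart, with 1641049 counts and 11814 genes detected, against 15094 and 15900 genes in the other alone libraries. Mitochondrially encoded messengers took 1.75% of its counts, against 0.235% and 0.18%. The mitochondrial ribosomal RNA mt-Rnr2 took 12.7%, against 5.92% and 7.39% in the other alone libraries, but it also took 11.1% in the third PyMT-M library. Neutrophil genes were abundant in both groups: S100a8 and S100a9, the subunits of calprotectin, had 10514 and 11488 normalised CPM alone and 4051 and 5021 with PyMT-M cells, and Csf3r, the G-CSF receptor, had 4976 and 1885.

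**Figure D1:**
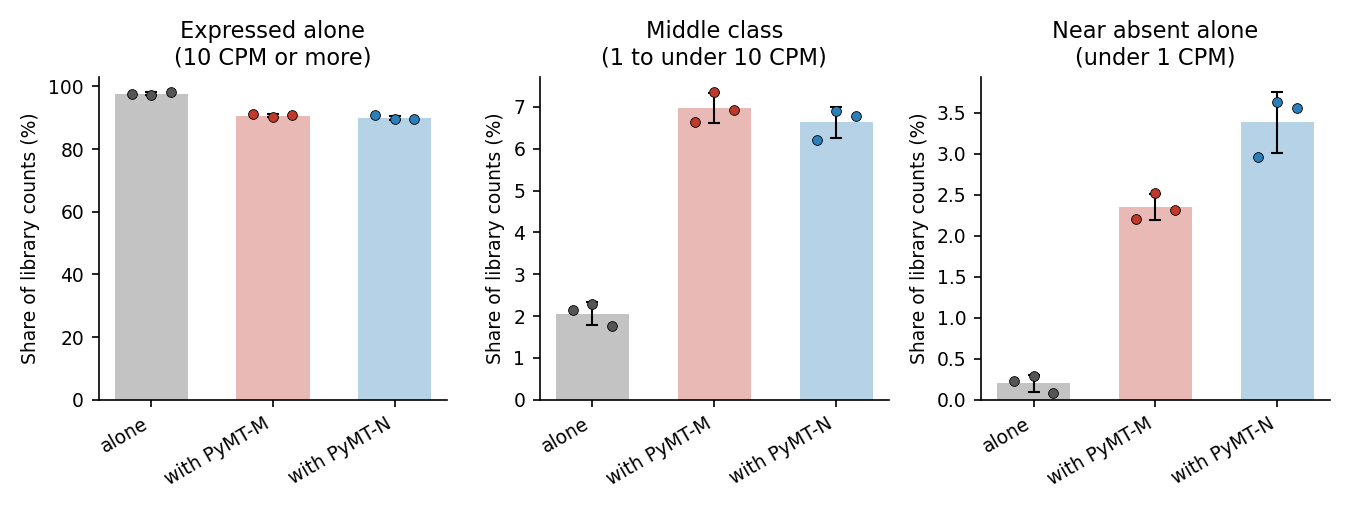
Share of each library's counts (%) taken by genes expressed alone, by the middle class and by genes near absent alone; points are libraries, bars the mean and error bars the SD of 3 libraries, and each panel has its own axis. The PyMT-M libraries had a mean of 2.35% of counts on genes near absent alone, against 0.204% alone and 3.38% with PyMT-N cells.

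Under TMM scaling, much of the transcriptome differed between the groups, in both directions. Of all 12012 genes tested, 3259 (27.1%) were higher and 3101 (25.8%) lower with PyMT-M cells at an adjusted p under 0.05 (edgeR's quasi-likelihood test, TMM scaling). Among genes expressed alone, 994 (14.5%) were higher and 2793 (40.8%) lower, with a median log2 fold change of -0.54. In the middle class 1336 (35.1%) were higher and 292 (7.66%) lower. Of the genes near absent alone, 929 (68.8%) were higher and 16 lower, a direction that their selection fixes. The split among expressed genes depends on the scaling. TMM assumes that most genes keep their level, and library totals gave 1712 higher and 1542 lower, TMM factors from expressed genes alone 1665 and 1621. Scaling to 24 genes that all leukocytes express gave 3860 (56.3%) higher and 193 (2.82%) lower, and shifted the median of all log2 fold changes by 1.49. It follows the leukocyte share of the RNA only if these genes keep their level in each cell, which was not tested. Those pan-leukocyte genes were all called lower under TMM, with a median of -1.68 and a range of -2.81 to -0.73. Under their own scaling 3 of them were called higher and 1 lower. Calls that were the same under TMM and all 5 other scalings tried numbered 993 rises and 193 falls over all expressed genes. Each of the 5 shifted log2 fold changes upward from TMM, by a median of 0.0892 to 1.49. Agreement under every scaling is therefore a check on falls and almost none on rises, of which 993 of 994 held. This applies to the rises of every list and gene below. Counts of lists below are given with such numbers or with their counts under pan-leukocyte scaling. They stand beside the 14.5% higher and 40.8% lower of all expressed genes under TMM.

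**Figure D2:**
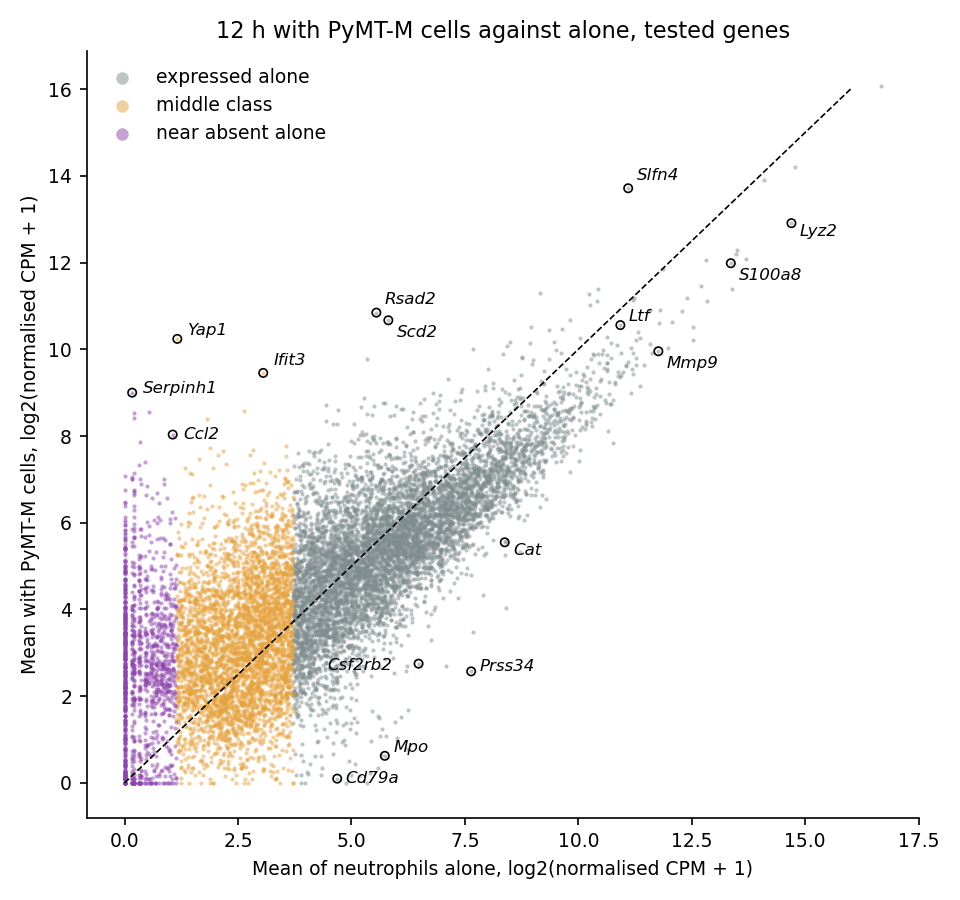
Mean of the 3 PyMT-M libraries against the mean of the 3 alone libraries for each tested gene, both as log2(normalised CPM + 1), coloured by class; the dashed line marks equal values. Rsad2 and Scd2 stand far above the line among expressed genes, with 1839 and 1627 normalised CPM with PyMT-M cells against 45.8 and 55.2 alone, and Mpo and Cd79a lie near the horizontal axis.

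Interferon-stimulated genes, which cells switch on when interferon binds its receptor, rose together. Of 24 list members expressed alone, 21 rose and 0 fell, against 14.5% and 40.8% of all expressed genes. Their median log2 fold change was 2.36. All 21 rises were called under every scaling, which hardly tests them, since 993 of the 994 rises of all expressed genes were too. All 47 genes of the list had enough counts in some group to be tested, the others being low alone. The interferon-stimulated response element was looked for as GAAANNGAAA on either strand in the 250 bases before the start of RefSeq transcripts (GRCm38.p6). It was present in 8 of 21 promoter windows of the 18 expressed members matched by symbol (38.1%), against 2.62% of 6916 windows of all expressed genes tested, 3.85% of 988 windows of expressed genes that rose, 2.71% of 2876 windows of those that fell and 2.98% of all 32851 windows. A match describes the letters and is not a measured binding site. Stretches from 6 members that rose are shown 5′ to 3′ in the direction of transcription, with 1 match in capitals, to show how the element sits in front of these genes: Rsad2 at chr12:26456538-26456597 on the minus strand, Gbp2 at chr3:142620579-142620638 on the plus strand, Stat2 at chr10:128270251-128270310 on the plus strand, Irgm1 at chr11:48871421-48871475 on the minus strand, Ifit3 at chr19:34583348-34583407 on the plus strand and Isg15 at chr4:156200856-156200915 on the minus strand.
Rsad2: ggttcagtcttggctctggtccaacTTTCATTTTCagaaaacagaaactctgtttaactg
Gbp2: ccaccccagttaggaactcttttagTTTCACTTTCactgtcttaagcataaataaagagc
Stat2: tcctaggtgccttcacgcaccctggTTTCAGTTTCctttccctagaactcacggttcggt
Irgm1: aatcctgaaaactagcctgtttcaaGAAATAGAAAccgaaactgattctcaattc
Ifit3: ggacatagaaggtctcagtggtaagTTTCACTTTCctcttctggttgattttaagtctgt
Isg15: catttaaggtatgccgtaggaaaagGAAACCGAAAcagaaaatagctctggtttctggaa

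The match began 120 bases before the start in Rsad2, 59 in Gbp2, 222 in Stat2, 30 in Irgm1, 156 in Ifit3 and 72 in Isg15. Rsad2 (viperin, an antiviral enzyme) had 34.2, 29.00 and 74.3 normalised CPM in the 3 alone libraries and 1939, 1959 and 1618 in the 3 PyMT-M libraries. It had the largest rise among expressed genes, 5.37 ± 0.31 (adjusted p = 1.7e-07) on the log2 scale, and the groups were far apart. Slfn4, a schlafen family member of myeloid cells, went from 2407, 1995 and 2171 to 12954, 13701 and 13634 normalised CPM, a log2 change of 2.62 ± 0.14 (adjusted p = 9.1e-08). With a mean of 13429.8 it was the most abundant gene of the list, at 6.13 times its level alone. Cmpk2, the mitochondrial nucleotide kinase encoded beside Rsad2, rose from 39.4 to 365 normalised CPM, by 3.24 ± 0.27 (adjusted p = 2.6e-06).

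A further 6 members were chosen after their values were seen, as the genes of the stretches above or as regulators. Ifit3, which binds viral RNA complexes with other IFIT proteins, was in the middle class with 8.88, 5.58 and 7.504 normalised CPM alone and had 711, 736 and 656 with PyMT-M cells, a log2 change of 6.59 ± 0.22 (adjusted p = 6.9e-09). Irf7, the transcription factor that amplifies interferon production, rose from 14.2 to 157 normalised CPM, and Stat2 rose from 90.1 to 333, with log2 changes of 3.45 ± 0.34 and 1.89 ± 0.16. The guanylate-binding protein Gbp2 went from 16.9 to 102 and the immunity-related GTPase Irgm1 from 15.98 to 111. Isg15, the ubiquitin-like modifier, went from 3.55, 1.86 and 10.5 to 113, 101 and 132, and without the third alone library its log2 change was 5.43 in place of 4.65. In none of these genes did an alone library reach a PyMT-M library.

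**Figure D3:**
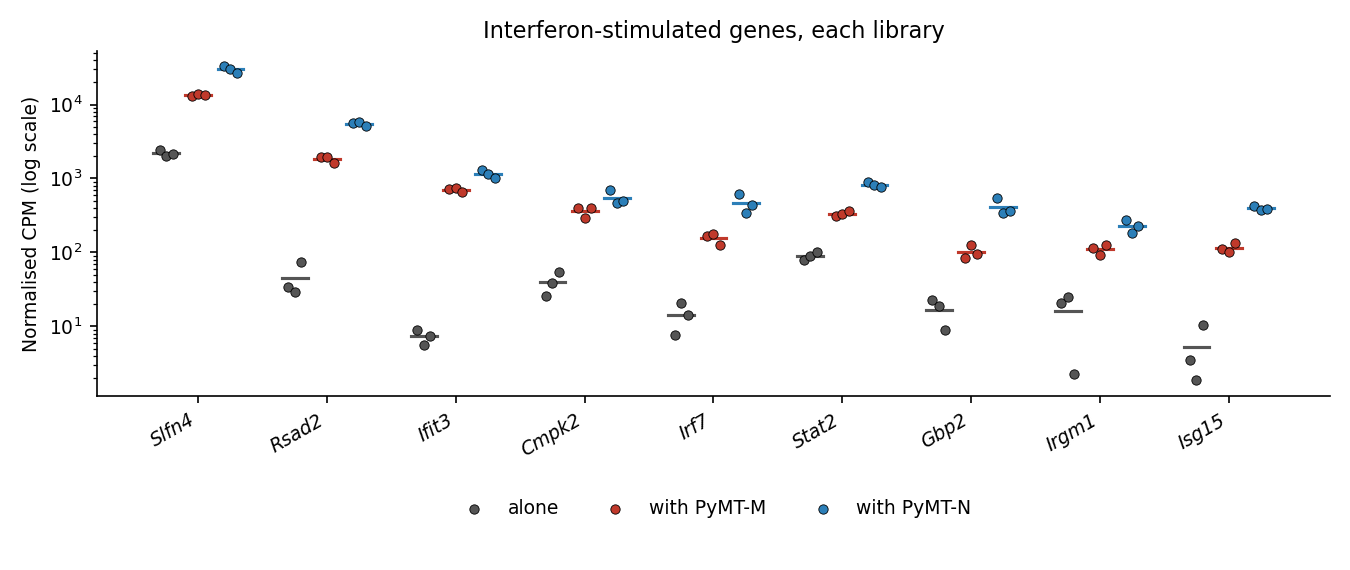
Normalised CPM (log axis) of 9 interferon-stimulated genes in each library of neutrophils alone and of both co-cultures; points are libraries and lines the group mean. Every PyMT-M library lies above every alone library for each gene shown, and the mean with PyMT-N cells was higher still for Rsad2, 5473 against 1839.

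Scd2, a stearoyl-CoA desaturase that makes monounsaturated fatty acids, went from 62.6, 48.3 and 54.8 to 1496, 1598 and 1788 normalised CPM, a log2 change of 4.88 ± 0.18 (adjusted p = 9e-09). Fasn (fatty acid synthase) and Sqle (squalene epoxidase of the cholesterol pathway) rose from 30.2 to 185 and from 53.9 to 152. Lipa, the lysosomal acid lipase, fell from 906 to 144, and it did so under every scaling. Of the 20 expressed sterol synthesis genes 7 rose and 1 fell, 7 of these rises and 0 of these falls under every scaling. Of 17 lipid uptake and storage genes 4 rose and 7 fell, 4 of these rises and 1 of these falls under every scaling. Of all expressed genes 14.5% rose and 40.8% fell, so the falls of the lipid list were at about that share.

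Sdc1 (syndecan-1, a heparan sulfate proteoglycan) had 29.7, 25.3 and 7.504 normalised CPM alone and 451, 408 and 396 with PyMT-M cells. Igfbp4, a secreted binding protein of insulin-like growth factors, went from 25.1 to 389.7, and the actin-binding genes Tpm1 and Cnn3 went from 39.6 to 877 and from 12.3 to 158. Their log2 changes were 4.26 ± 0.34, 3.97 ± 0.26, 4.48 ± 0.23 and 3.85 ± 0.49, and the last was 4.84 without the third alone library. Ccnd2 (cyclin D2) had 3.55, 6.32 and 63.8 alone and 351, 316 and 264 with PyMT-M cells; its log2 change of 3.83 ± 0.70 became 5.94 without that library, which held most of its alone signal. Usp36, a nucleolar deubiquitinase, rose from 13.1 to 194. Ptges, the inducible prostaglandin E synthase, had 25.3, 20.5 and 23.3 alone against 156, 266 and 512, a log2 change of 3.76 ± 0.38 (adjusted p = 1e-05) with a wide spread among the PyMT-M libraries and none of them near the alone level. Adherent cells also express many of these genes, and mesenchymal markers moved with them: the summed CPM of 28 markers was 1259.6 to 1415 alone and 4468 to 5565 with PyMT-M cells, or 188 to 223 and 1786 to 2013 without Vim, with 5 of the 28 at 0 in every PyMT-M library. Their part in these rises, and in those of the growth genes that follow, was not tested.

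Genes of protein synthesis rose more often than they fell. Of 23 expressed genes for ribosome biogenesis and translation factors, 17 rose and 1 fell, with a median log2 fold change of 2.16. The 17 rises were called under every scaling, which hardly tests rises. Npm1 (nucleophosmin, a nucleolar chaperone) went from 25.7, 30.1 and 36.8 to 212, 232 and 263 normalised CPM, by 2.94 ± 0.20 (adjusted p = 6.4e-07) on the log2 scale, with no overlap. Mybbp1a, a nucleolar regulator of ribosomal RNA synthesis, and Eif5a, an elongation factor, rose from 19.2 to 203 and from 138 to 639. The exception, the elongation factor Eef2, went from 1686 to 1140.1, a fall under TMM that turned to a log2 change of 0.93 with pan-leukocyte scaling. Of 78 ribosomal protein genes 40 rose and 1 fell, 40 of these rises and 0 of these falls under every scaling; Rps2 had 82.1, 67.7 and 119 alone and 427, 476 and 388 with PyMT-M cells, while Rps9 went from 494 to 273, with 0.66 on the log2 scale under pan-leukocyte scaling. The E-box CACGTG, to which MYC family factors bind, was in 7 of 26 promoter windows of the biogenesis list (26.9%) and in 9.21% of the windows of expressed genes.

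Chaperones, amino acid synthesis and cell cycle genes showed the same direction. Heat shock genes rose in 8 of 10 cases and fell in 0. All 8 rises were called under every scaling, which again hardly tests rises. Hspd1, the mitochondrial chaperonin, went from 19.5, 38.7 and 54.8 to 429, 471 and 505 normalised CPM, and Hsp90ab1, the constitutive HSP90, from 537, 575 and 588 to 2408, 2647 and 2450.0; their log2 changes were 3.66 ± 0.29 (adjusted p = 1.9e-06) and 2.14 ± 0.14 (adjusted p = 4.7e-07). Of 18 integrated stress response genes 10 rose and 3 fell, 10 of these rises and 1 of these falls under every scaling. The rises included Asns, asparagine synthetase, from 16.7 to 193, and Shmt2, the mitochondrial enzyme that passes serine carbon to folate, from 20.8 to 322. Slc7a11, the cystine importer, went the other way, from 2646, 2989.6 and 1238 to 544, 586 and 388, a log2 change of -2.18 ± 0.28 (adjusted p = 5e-05) that was a fall under every scaling.

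Of 25 expressed cell cycle genes 19 rose and 2 fell, 19 of these rises and 0 of these falls under every scaling, with a median log2 fold change of 2.07. Top2a, the replication topoisomerase, had 39.1, 45.4 and 33.8 normalised CPM alone and 221, 209 and 280.2 with PyMT-M cells, and Ube2c, a mitotic ubiquitin-conjugating enzyme, went from 32.3 to 309. Mature neutrophils do not divide, and whether these transcripts came from neutrophils was not tested. Ccnd3 (cyclin D3) went from 291 to 157, a log2 change of -0.89 ± 0.16 that was 0.60 under pan-leukocyte scaling.

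The largest falls among expressed genes were mostly in genes of B cells and dendritic cells. In bulk RNA, fewer cells of a type and less RNA per cell cannot be told apart. The summed CPM of 13 B and plasma cell markers was 512 to 1167 alone and 98.5 to 149.6 with PyMT-M cells; that of 14 eosinophil, basophil and mast cell markers was 342 to 444 and 17.4 to 19.96; and that of 13 dendritic cell markers was 408 to 786 and 119 to 148. None of these ranges overlapped, and each exact two-sided permutation p was 0.1, the smallest that 3 against 3 libraries allow, or 0.14 after Benjamini-Hochberg adjustment over 10 marker lists. Of the expressed members, 8 of 9 B and plasma cell, 6 of 6 eosinophil, basophil and mast cell and 7 of 8 dendritic cell genes fell, and all of these calls held under every scaling. Erythroid markers other than Tfrc were near 0 in both groups, with summed CPM of 0 to 0 alone and 0.499 to 4.28 with PyMT-M cells. Those of T and NK cells (12.2 to 17.4 and 7.89 to 15.6) overlapped, as did those of endothelial cells and platelets (11.6 to 49.7 and 7.99 to 15.9).

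Flt3, a receptor of progenitors and dendritic cells, had 18.6, 27.5 and 39.8 normalised CPM alone and no count in any PyMT-M library, which is at least 123-fold lower with the floor set at 3 counts for the whole group. Hpgd, which degrades prostaglandins, had 15.5, 16.4 and 12.01 alone and was also without a count, at least 69.2-fold lower. So was Gpr171, an orphan receptor gene with 17.3, 15.6 and 8.25 normalised CPM alone, by at least 67.03-fold. Such floors and the intervals below cover counting error only. The B cell genes Cd79a and Ms4a1 had 144 and 246 counts alone against 1 and 2 with PyMT-M cells, ratios of 315 (95% counting interval 55.6 to 12517) and 269 (95% counting interval 73.6 to 2232). Siglech of plasmacytoid dendritic cells had 178 against 2 counts, a ratio of 195 (95% counting interval 53.1 to 1619). Apol7c, an apolipoprotein L gene, had 121 against 2, a ratio of 132 (95% counting interval 35.8 to 1104). Kynu (kynureninase, of tryptophan breakdown) had 7.100, 5.95 and 91.6 normalised CPM alone and 2 counts with PyMT-M cells, a ratio of 168 (95% counting interval 45.8 to 1402). Spib, a transcription factor of B and plasmacytoid dendritic cells, had 17.8, 18.96 and 105 alone and a log2 change of -7.15 ± 1.19 (adjusted p = 0.00035), or -5.84 without the third alone library and -8.31 without the first PyMT-M library. Without the third alone library the fitted log2 change of Kynu was -5.22 in place of -7.56, and without a PyMT-M library that held such counts it was -9.38 for Cd79a, -10.17 for Ms4a1, -9.81 for Kynu, -9.70 for Siglech and -9.03 for Apol7c; none of these calls ended.

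Proteases of basophils and mast cells also fell. Prss34 had 176, 259 and 159.8 normalised CPM alone and 5.56, 3.99 and 5.297 with PyMT-M cells, a log2 change of -5.32 ± 0.34 (adjusted p = 3.7e-07). Mcpt8 fell from 63.4 to 1.07 and Cpa3 from 73.5 to 0.729, the second by -6.49 ± 0.64 on the log2 scale, or -8.06 without the second PyMT-M library. The MHC class II genes H2-Aa and Cd74 fell from 134 to 5.48 and from 203 to 10.2. Monocyte and macrophage markers fell less: Csf1r, the CSF1 receptor, went from 219.7, 299 and 503 to 43.00, 52.98 and 43.4, and F13a1, a coagulation factor chain of monocytes, from 152 to 23.3. Of the 8 expressed monocyte and macrophage markers 8 fell under TMM, 3 of them under every scaling. Of 5 tested markers that were low alone, 3 were called higher under every scaling. Beside them, 35.1% of the middle class and 68.8% of the genes near absent alone were called higher, so nothing is read from that count. Fcgr1, the high-affinity IgG receptor, had 0.444, 5.58 and 0 normalised CPM alone and 65.9, 30.8 and 38.1 with PyMT-M cells, a log2 change of 4.19 ± 0.61 (adjusted p = 0.00014), or 7.17 without the second alone library. The mannose receptor Mrc1 had 2.22, 1.86 and 1.501 and 14.1, 3.99 and 3.71, and the complement gene C1qc 0.444, 1.49 and 0.7504 and 3.64, 3.42 and 3.44, with log2 changes of 1.93 ± 0.67 (adjusted p = 0.028) and 1.87 ± 0.73 (adjusted p = 0.047). The call of Mrc1 was lost without the first alone library (2.06), the second alone library (1.91) or the first PyMT-M library (1.01), and that of C1qc without any 1 of the 6 libraries (1.52 to 2.56). The summed CPM of 16 monocyte and macrophage markers was 1469 to 2422 alone and 967 to 1256 with PyMT-M cells.

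Genes of the neutrophil itself fell under TMM, and most of these calls were lost under pan-leukocyte scaling. Of 21 neutrophil identity genes 17 fell and 2 rose under TMM, with a median log2 fold change of -1.18, against -1.68 for the pan-leukocyte genes; under pan-leukocyte scaling 0 fell and 8 rose. S100a8 had 12034, 11656 and 7851 normalised CPM alone and 4336, 3346 and 4471 with PyMT-M cells, a log2 change of -1.38 ± 0.19 that was 0.12 (adjusted p = 0.59) under pan-leukocyte scaling. S100a9 (-1.19 ± 0.17 against 0.27) and Csf3r (-1.40 ± 0.17 against 0.08) behaved alike in this respect. Cxcr2, the receptor for CXC chemokines that draws neutrophils from marrow, went from 2465 to 1183, -1.06 ± 0.16 under TMM and 0.42 (adjusted p = 0.022) under pan-leukocyte scaling. Ly6g, the surface marker of mouse neutrophils, had 54.1, 66.6 and 32.3 and 29.1, 23.4 and 25.4; its TMM call (adjusted p = 0.011) was lost without the second alone library (adjusted p = 0.055) and its sign turned under pan-leukocyte scaling (0.49).

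The 10 expressed primary granule genes all fell under TMM, and 5 of them fell under every scaling. Mpo (myeloperoxidase) had 63.02, 36.8 and 57.03 normalised CPM alone and 0, 0.5697 and 1.06 with PyMT-M cells, a log2 change of -6.56 ± 0.66 (adjusted p = 2.4e-05), or -7.29 without the third PyMT-M library. Prtn3 (proteinase 3) went from 43.02 to 2.14, a log2 change of -4.35, or -5.24 without that library, and Gstm1, a glutathione transferase on the list, went from 253, 468 and 278 to 45.99, 34.6 and 31.5. These genes are made at the promyelocyte stage. The summed CPM of progenitor markers was 159 to 224 alone and 69.6 to 76.5 with PyMT-M cells. Without Cd48, the most abundant of them, it was 95.96 to 129 and 45.7 to 52.2. Of 5 expressed progenitor markers 4 fell under TMM, 2 of them under every scaling, and 1 rose under pan-leukocyte scaling. The part of progenitors in the granule gene falls was not tested. Of 18 secondary and tertiary granule genes 13 fell under TMM and 0 under pan-leukocyte scaling, where 7 rose. Ltf (lactoferrin) had 2372, 1528 and 1934 and 1617, 965 and 1936 normalised CPM, overlapping ranges with a log2 change of -0.37 ± 0.25 (adjusted p = 0.24) under TMM and a log2 change of 1.16 (adjusted p = 0.00083) under pan-leukocyte scaling. Lyz2 (lysozyme) fell from 26537 to 7685 and Mmp9 (gelatinase B) from 3475 to 991, with log2 changes of -0.28 (adjusted p = 0.16) and -0.34 (adjusted p = 0.085) under pan-leukocyte scaling. Lcn2, an iron-siderophore binding granule protein, went from 1281 to 706 and turned from -0.86 ± 0.23 to 0.61.

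All 9 expressed NADPH oxidase genes fell under TMM, including the GTPase gene Rac2 from 561 to 158; 1 fell and 2 rose under pan-leukocyte scaling, where the log2 change of Rac2 was -0.35 (adjusted p = 0.12). The formyl peptide receptor Fpr1 (from 414 to 124), the C-type lectin Clec4d (from 2333 to 751), the signalling adaptor Tyrobp (from 836 to 253), the transcription factor Nfe2 (from 369 to 116), the death receptor Fas (from 213 to 73.8) and the hexokinase Hk3 (from 552 to 152) were alike: each fell under TMM and passed no test under pan-leukocyte scaling. Of the integrin genes, Itgb2 (CD18) went from 1568 to 435 and Itgam (CD11b) from 228 to 73.4, falls under TMM with no call under pan-leukocyte scaling (-0.38 and -0.14). Cd44, a hyaluronan receptor, went from 1032 to 566 and turned to 0.61 there.

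**Figure D4:**
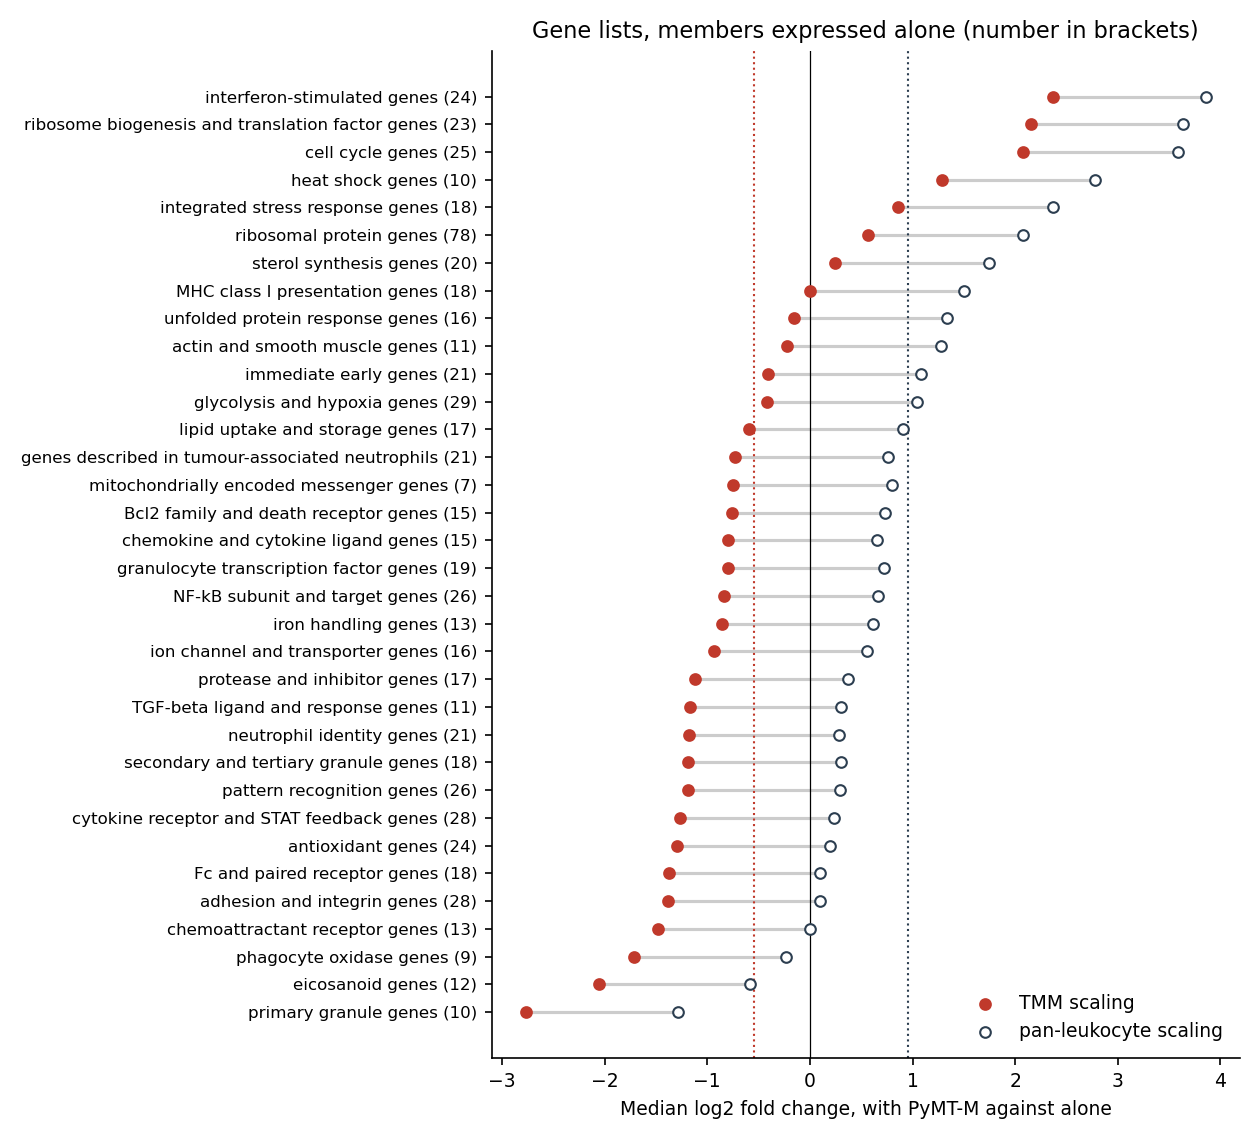
Median log2 fold change with PyMT-M cells against alone for the expressed members of each pathway list with 6 or more such members, under TMM scaling (filled) and pan-leukocyte scaling (open); dotted lines are the medians of all expressed genes, -0.54 and 0.95. Interferon-stimulated genes have the highest median under both, 2.36 and 3.86, and primary granule genes the lowest, -2.77 and -1.29.

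Some myeloid genes were among the 193 that fell under every scaling. Whether these falls lay in neutrophils or in the other blood cells whose markers fell was not tested. Csf2rb2, a mouse beta chain of the interleukin-3 receptor, had 82.5, 102 and 80.3 normalised CPM alone and 5.78, 6.65 and 4.77 with PyMT-M cells, a log2 change of -3.93 ± 0.24 (adjusted p = 2.5e-07) and -2.46 under pan-leukocyte scaling. Clec4n (dectin-2, a fungal mannan receptor) went from 368, 500.1 and 371 to 81.3, 68.9 and 59.1 and Ccl6, a CC chemokine, from 349, 335 and 479.5 to 93.1, 93.4 and 92.96; their log2 changes were -2.57 ± 0.20 (adjusted p = 1.8e-06) and -2.05 ± 0.17 (adjusted p = 2.1e-06), without overlap. Cxcr4, the marrow retention receptor, fell from 121 to 24.4, and Alox5ap, which presents arachidonate for leukotriene synthesis, from 598 to 131. The transcription factors Cebpa and Irf8 fell from 98.6 to 14.3 and from 160.5 to 25.4. Irf8 is also on the list of dendritic cell markers. Fermt3 (kindlin-3), which activates leukocyte integrins, fell from 129 to 18.3. It is itself 1 of the 24 pan-leukocyte scaling genes.

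Redox and iron genes were also in that set. Of 24 expressed antioxidant genes 21 fell and 0 rose, 8 of the falls under every scaling. Cat (catalase) had 279, 393 and 323 normalised CPM alone and 41.5, 44.6 and 51.4 with PyMT-M cells, a log2 change of -2.86 ± 0.20 (adjusted p = 5.9e-07), and Pgd, which supplies NADPH in the pentose phosphate pathway, went from 2630.2 to 567. Of 13 iron handling genes 8 fell and 3 rose, 3 of these rises and 4 of these falls under every scaling. Slc11a1, the phagosomal metal pump, fell from 566 to 81.9 and Slc40a1, the iron exporter ferroportin, from 1614 to 278. Tfrc, the transferrin receptor that imports iron, rose from 55.5, 35.3 and 34.5 to 221, 268 and 191, by 2.43 ± 0.24 (adjusted p = 8.9e-06). The glycolytic gene Ldha (lactate dehydrogenase A) also rose, from 498 to 1460.2, in a list of 29 glycolysis and hypoxia genes of which 8 rose and 12 fell under TMM, the falls at about the 40.8% of all expressed genes, and 18 rose and 0 fell under pan-leukocyte scaling.

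Most other lists of surface and signalling genes held falls under TMM that were lost with pan-leukocyte scaling. Among pattern recognition genes 0 rose and 20 fell of 26, among Fc and paired receptor genes 0 rose and 18 fell of 18, among chemoattractant receptor genes 1 rose and 12 fell of 13, among adhesion and integrin genes 3 rose and 21 fell of 28, and among cytokine receptor and STAT feedback genes 2 rose and 22 fell of 28. The falls called under every scaling numbered 1, 1, 2, 4 and 3 in these lists. Of the unfolded protein response genes 6 rose and 3 fell of 16 under TMM, and 14 rose and 0 fell under pan-leukocyte scaling. Of the MHC class I presentation genes 2 rose and 5 fell of 18 under TMM, and 13 rose and 0 fell under pan-leukocyte scaling. Immediate early genes, which respond within minutes to stimulation, fell in 8 and rose in 2 of 21 under TMM. Under pan-leukocyte scaling 0 of them fell and 18 rose. All expressed genes stand beside these lists with 14.5% higher and 40.8% lower under TMM, and 56.3% and 2.82% under pan-leukocyte scaling. The immediate early falls under TMM were at about that share.

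The direction of inflammatory ligand genes against neutrophils alone depended on the scaling. Of 15 expressed chemokine and cytokine ligand genes 1 rose and 7 fell under TMM, and of 26 NF-kB subunit and target genes 0 rose and 15 fell. All expressed genes stand beside them with 14.5% higher and 40.8% lower. Under pan-leukocyte scaling the counts were 7 and 1, and 13 and 0, beside 56.3% and 2.82% of all expressed genes. Il1b (interleukin-1 beta) had 521, 462 and 618 normalised CPM alone and 348, 470.4 and 218 with PyMT-M cells, ranges that overlapped. Its log2 change was -0.62 ± 0.26 (adjusted p = 0.059), 0.85 (adjusted p = 0.0034) under pan-leukocyte scaling, and a call as lower without the second PyMT-M library (-0.91, adjusted p = 0.017). Il1rn, the interleukin-1 receptor antagonist, had 305, 219.8 and 484 and 335, 419 and 276, and the neutrophil-attracting chemokine Cxcl2 had 54.1, 24.5 and 15.8 and 35.3, 61.2 and 9.004; their log2 changes were 0.04 ± 0.24 (adjusted p = 0.91) and 0.14 ± 0.53 (adjusted p = 0.84) under TMM and 1.53 and 1.6, both called, under pan-leukocyte scaling. Vegfa, the angiogenic factor, had 51.03, 72.1 and 21.01 and 57.3, 55.1 and 54.8, a log2 change of 0.19 ± 0.33 (adjusted p = 0.65), or 1.67 (adjusted p = 0.00088). Arg1 (arginase 1) had 5 counts in all alone libraries and 12 in all PyMT-M libraries, a ratio of 1.098 (95% counting interval 0.3601 to 3.98).

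Of 21 expressed genes described in tumour-associated neutrophils 5 rose and 11 fell under TMM, beside 14.5% and 40.8% of all expressed genes, and 13 rose and 1 fell under pan-leukocyte scaling. Spp1 (osteopontin) had 72.8, 63.6 and 51.03 normalised CPM alone and 239, 209 and 296 with PyMT-M cells, a log2 change of 1.98 ± 0.19 (adjusted p = 5.4e-06), and Ctsl, a lysosomal protease, went from 115, 115 and 101 to 351, 319.8 and 430.4, by 1.73 ± 0.16 (adjusted p = 5e-06). Cd274, the checkpoint ligand PD-L1, had 17.8, 10.04 and 23.3 and 28.7, 31.1 and 32.6; its rise of 0.90 ± 0.28 (adjusted p = 0.017) lost its call without the second alone library (0.60, adjusted p = 0.066). Csf1, the macrophage growth factor, rose from 42.6 to 102, and the survival gene Bcl2l1 (BCL-XL) from 23.7 to 68.8. C3ar1, the C3a receptor, and Socs3, a feedback inhibitor of STAT3, rose from 15.6 to 41.9 and from 16.5 to 53.6, the second by 1.66 ± 0.41, or 1.00 without the third PyMT-M library, which held 93.2. Itgb1, the integrin beta 1 chain shared by matrix receptors, rose from 149, 149 and 119 to 276, 330.4 and 278, by 1.08 ± 0.17 (adjusted p = 0.00024).

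Genes near absent alone that appeared with PyMT-M cells were led by matrix and mesenchymal genes of the kind that tumour cells could supply. Their direction follows from the choice of genes under 1 CPM alone, so the values that follow are a description. Serpinh1, the collagen chaperone HSP47, had the highest mean of the class with PyMT-M cells, with 0, 0.372 and 0 normalised CPM alone and 474, 559.9 and 499 with PyMT-M cells; in raw terms it had 1 and 7046 counts, a depth-adjusted ratio of 3224 (95% counting interval 578 to 127345). Sparc, a matricellular collagen-binding protein, had 0.444, 0 and 0 and 333, 395 and 375. The fibrillar collagens Col3a1 and Col5a1 had means of 232 and 159.8 with PyMT-M cells, from 2 and 1 counts in all alone libraries, and the beaded-filament collagen Col6a1 had 140.5 from 1. Aebp1, a collagen-binding protein, had no count alone and a mean of 134, at least 286-fold higher by the same floor.

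The other leading genes of this class were Bcat1, a cytosolic branched-chain aminotransferase, with 381, 449.7 and 292 normalised CPM with PyMT-M cells, Dusp9, a MAP kinase phosphatase, with 363, 417 and 248, Cavin1, a coat protein of caveolae, with 145, 211 and 149, and the monocyte chemokine Ccl2 with 272, 201 and 309.9. In the alone libraries these had 3, 1, 3 and 8 counts in all. The transcription factor Sox9 and the collagen receptor Ddr2 reached 99.04 and 128 from a single count each. Of the 27 collagen and matrix genes with enough counts, out of 38, 21 were called higher and 2 lower (21 and 1 under every scaling), and of 16 mesenchymal transcription factor genes, out of 22, 12 and 1 (12 and 0). Such shares stand beside the 68.8% of all tested genes near absent alone that were called higher, and nothing is read from them. Hmga2, a chromatin protein of embryonic and tumour cells, had 1.33, 0.372 and 0 alone and 69.3, 80.9 and 46.6 with PyMT-M cells. Leaving out an alone library that held such a gene's few counts moved its fitted fold by over 1.5 times for Serpinh1, Bcat1, Sparc, Dusp9, Cavin1, Col5a1, Col6a1, Sox9, Ddr2, Krt8, Wfdc2, Ocln and Hmga2, and ended none of their calls.

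The middle class held Yap1, the growth-promoting coactivator of the Hippo pathway, at 2.22, 0 and 1.501 normalised CPM alone and 1014, 1271 and 1338 with PyMT-M cells, above the mean of any gene near absent alone. Its fitted log2 change of 10.02 ± 0.46 was 11.13 without the first alone library and 9.26 without the second. Col1a1, the major fibrillar collagen, had 12.4, 5.21 and 0.7504 and 42.6, 56.8 and 31.3, and its log2 change of 2.74 ± 0.56 was 3.65 without the first alone library. A further 2 genes of this kind were expressed alone. Vim, the intermediate filament vimentin that leukocytes and mesenchymal cells both make, had 1421, 1267 and 1468 and 2882, 2906 and 2292, a log2 change of 0.96 ± 0.14 (adjusted p = 0.00014). The receptor tyrosine kinase Axl rose from 7.99, 29.7 and 33.8 to 191, 204 and 162, by 2.99 ± 0.36 (adjusted p = 3.5e-05).

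Of 22 tested epithelial markers 4 were called higher and 3 lower with PyMT-M cells than alone, 4 and 1 under every scaling. Of the 22, 19 were low alone, and the 4 called higher were among them. Beside them, 68.8% of all tested genes near absent alone and 35.1% of the middle class were called higher, and 7.66% of the middle class lower. Without Lcn2, which neutrophils make, the summed CPM of the other 25 epithelial markers was 61.5 to 114 alone and 143 to 212 with PyMT-M cells, and 6 of the 26 markers had no count in any PyMT-M library. Krt8 (keratin 8) had 0.444, 0 and 0 normalised CPM alone and 37.2, 47.9 and 44.8 with PyMT-M cells, whereas its partner Krt18 (keratin 18) had 1.33, 0 and 0.7504 and 0, 0.3798 and 0. Epcam, the epithelial adhesion molecule, had no count alone and 1.71, 1.899 and 2.12 with PyMT-M cells, at least 3.97-fold higher against the floor. The others called higher were Wfdc2, a secreted protease inhibitor of epithelia, with 0, 0.744 and 0 and 20.8, 29.2 and 42.6, and the tight junction gene Ocln, with 0.444, 0 and 0 and 3.64, 2.66 and 2.12; they had 2 and 1 counts in all alone libraries, and their ratios were 94.2 (95% counting interval 25.9 to 781) and 17.8 (95% counting interval 3.02 to 723). Cdh1 (E-cadherin) was in the middle class alone with 8.88, 15.6 and 4.503 and fell to 0.856, 0.5697 and 0.265, a log2 change of -4.06 ± 0.52 (adjusted p = 5.3e-05). Fn1 (fibronectin) had 19.97, 4.46 and 75.04 alone and 0.214, 2.09 and 1.32 with PyMT-M cells, a fall of -4.59 ± 0.88 (adjusted p = 0.00091) that was -3.22 without the third alone library and -5.35 without the second PyMT-M library.

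**Figure D5:**
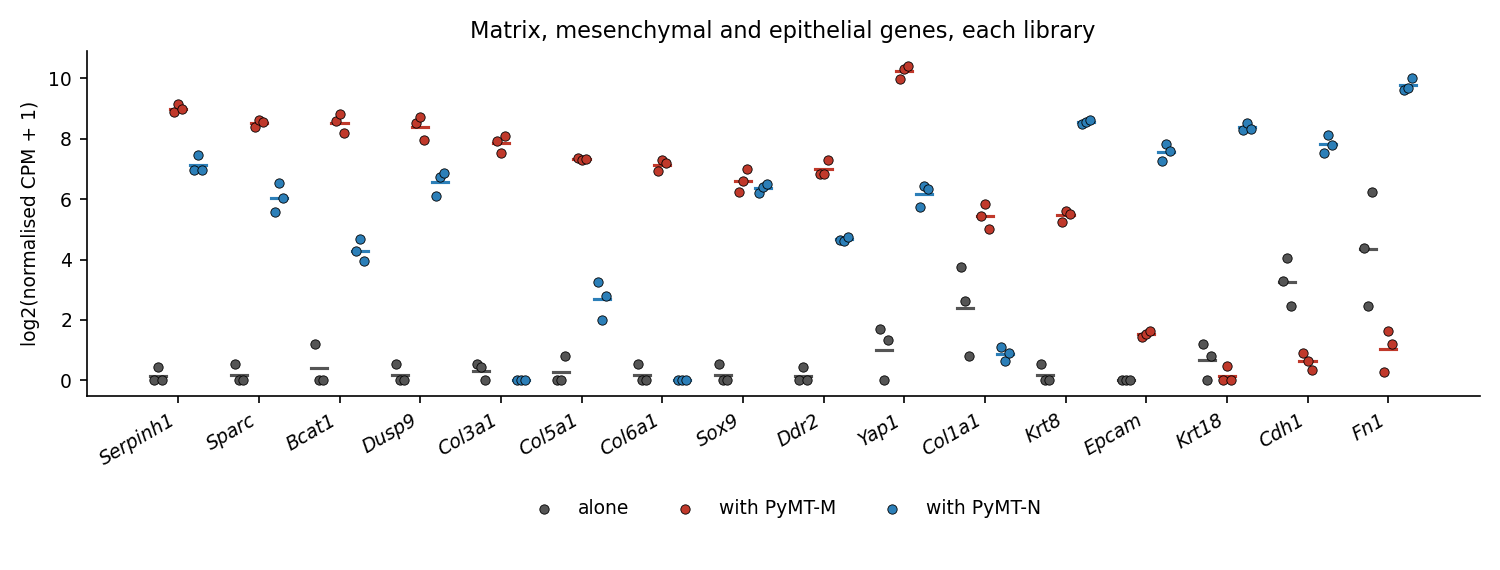
log2(normalised CPM + 1) of 16 matrix, mesenchymal and epithelial genes in each library of neutrophils alone and of both co-cultures; points are libraries and lines the group mean. Serpinh1 to Yap1 lie at or near 0 alone and high with PyMT-M cells, while Krt18, Epcam, Cdh1 and Fn1 are higher with PyMT-N cells, Fn1 at a mean of 879.9 normalised CPM against 1.21 with PyMT-M cells.

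The direct contrast of the co-cultures, in which the alone libraries cancel, showed where the PyMT-M libraries differed from the PyMT-N libraries. Whether these differences lay in neutrophil RNA or in tumour cell RNA was not tested. Among genes expressed alone 10.8% were higher and 15.2% lower with PyMT-M cells; under library totals and pan-leukocyte scaling the split was 1169 to 742 and 1793 to 465 genes, the second moving the median by 0.50. Interferon-stimulated genes were lower with PyMT-M than with PyMT-N cells in 21 of 24 expressed members, 13 under every scaling, and higher in 0: Rsad2 had 1939, 1959 and 1618 normalised CPM against 5597, 5744 and 5079, a log2 difference of -1.57 ± 0.25 (adjusted p = 0.00056). Of the 15 chemokine and cytokine ligand genes 11 were lower and 1 higher, and of the 26 NF-kB genes 20 and 1; 10 and 17 of those lower calls held under every scaling. Il1rn had 343 against 6344 normalised CPM, Cxcl2 35.2 against 1649.6, and Arg1 1.04 against 188, with log2 differences of -4.21 ± 0.27, -5.53 ± 0.58 and -7.64 ± 0.79. Csf2rb2, which fell with PyMT-M cells, had a mean of 5.73 there, 365 with PyMT-N cells and 88.2 alone.

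Growth genes were more often higher than lower with PyMT-M cells in this contrast. Ribosome biogenesis and translation factor genes were higher with PyMT-M than with PyMT-N cells in 11 of 23 cases and lower in 0. Ribosomal protein genes were higher in 30 of 78 and lower in 0, and cell cycle genes in 9 of 25 and 1. The numbers were the same under every scaling. The other scalings all shifted this contrast upward from TMM, by a median of 0.0444 to 0.498, so that agreement hardly tests the higher calls. Ltf had 1617, 965 and 1936 normalised CPM with PyMT-M cells and 56.8, 35.9 and 40.04 with PyMT-N cells, a log2 difference of 5.09 ± 0.30 (adjusted p = 2.8e-07). Of the tested genes near absent alone, 21.4% were higher and 35.4% lower with PyMT-M cells. Collagen and matrix genes were higher in 14 and lower in 8 of 27: Col3a1 and Col6a1 had no count in any PyMT-N library, and Serpinh1 had 511 against 140.1. Epithelial markers were lower in 21 of 22 and higher in 0, with Epcam at 1.91 against 189 normalised CPM.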

How the data were processed

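Total RNA of each library was extracted with a column kit and sequencing libraries were made with a kit for small inputs, per the protocols in the labels. The authors deposited 1 table of raw read counts per gene, with Ensembl gene IDs; the submitters' processing notes name STAR and the mouse builds GRCm38 and mm10, and nothing read here names the counting tool, its annotation or its strand option, so overlapping and antisense genes may share counts. IDs were paired with symbols from GENCODE vM21 for 54409 of 54532 IDs, and of IDs sharing a symbol the longest kept it.

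The deposited counts of all 9 libraries (1641049 to 4524563 a library) entered 1 fit with a mean per group in edgeR 4.0.16 (R 4.3.3): TMM factors, filterByExpr by group, a robust quasi-likelihood F test and Benjamini-Hochberg adjustment over all 12012 genes tested, with calls at an adjusted p under 0.05. Normalised CPM use the TMM-scaled library total, the log2 fold change ± SE is edgeR's, and classes use CPM of the plain total. On simulated counts for this contrast with 10019 genes, the fit called 2, 13, 42 and 46 of 50 genes changed 1.5, 2, 4 and 8-fold and 7 unchanged genes. Most of the 10019 genes were left unchanged there, so error from the choice of scaling was not tested. The 10 marker lists were compared by exact two-sided permutation (scipy 1.17.1). No pair of libraries of a group agreed within sampling noise. Alternatives were 5 other scalings (relative log expression, upper quartile, library totals, pan-leukocyte genes, TMM from expressed genes), 2 other filters, DESeq2 1.42.0, limma 3.58.1 with voom and sample weights, no robust moderation, only the groups compared, a replicate block, other thresholds, other class limits of 20 and 0.5 CPM or 5 and 2 CPM, and leaving out each library.

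The members, lists and tests were chosen with earlier results of these data known. Genes were named by a rule: the 10 largest rises and falls among called, non-overlapping expressed genes, the 10 highest with PyMT-M cells among those near absent alone, up to 3 members of smallest p per list among its more frequent direction and 1 against it, and a set of familiar neutrophil and tumour genes. Irf7, Ifit3, Stat2, Gbp2, Irgm1, Isg15, Mrc1, C1qc and Ocln lie outside it and were chosen after their values were seen. Some genes that the rule selected are not reported here.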

Additional observations from a re-analysis of the deposited data

Results flagged for a closer look

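The direct test of PyMT-M against PyMT-N co-cultures called 86 of the 126 genes named here at an adjusted p under 0.05 (edgeR's quasi-likelihood test, 3 libraries a group), 53 lower and 33 higher with PyMT-M cells, and 74 of these calls held under all scalings. Each value below is the log2 difference, PyMT-M minus PyMT-N. Among interferon-stimulated genes they were Slfn4 -1.16, Rsad2 -1.57, Irf7 -1.57, Ifit3 -0.72, Stat2 -1.31, Gbp2 -2.03 and Isg15 -1.78. Cytokine, chemokine and tumour-associated genes had Il1b -2.38, Il1rn -4.21, Cxcl2 -5.53, Ccl6 -5.15, Arg1 -7.64, Spp1 -1.93, Cd274 -2.31, Ctsl -1.50, Fas -2.42, Bcl2l1 -2.18, Csf1 -1.03, Socs3 -2.50, Ptges 2.35 and Ccl2 0.94. Receptors, adhesion and signalling genes had Csf2rb2 -5.97, Clec4n -3.58, Clec4d -0.63, Fpr1 -1.46, Cxcr2 -0.60, Csf3r -0.61, C3ar1 1.49, Itgam -1.0, Fermt3 -0.98, Itgb1 -1.03, Cd44 -2.15, Axl -1.18 and Sdc1 -1.31. Granule, lysosome, metal and redox genes had Ltf 5.09, Lcn2 -1.14, Lyz2 1.27, Mmp9 -1.58, Lipa -1.71, Slc11a1 -1.59, Slc7a11 -1.24, Pgd -0.70 and Alox5ap -0.50.

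Growth, translation and metabolic genes had Scd2 0.91, Fasn 0.81, Igfbp4 1.71, Shmt2 0.90, Usp36 1.34, Npm1 1.16, Mybbp1a 1.01, Eif5a 0.58, Rps2 0.66, Hspd1 1.09, Hsp90ab1 0.51, Top2a 1.20 and Ccnd3 0.53. The transcription factors Cebpa and Nfe2 had Cebpa 0.97 and Nfe2 -0.51, and genes of other blood cells had Mcpt8 -3.17, Cd74 -1.72, Csf1r -1.52, Fcgr1 -1.83 and C1qc 2.20. Matrix and mesenchymal genes had Serpinh1 1.87, Bcat1 4.30, Sparc 2.44, Dusp9 1.83, Cavin1 0.81, Col5a1 4.76, Aebp1 1.24, Col1a1 5.63, Yap1 4.06, Ddr2 2.38, Vim 2.46, Tpm1 -1.71, Hmga2 -3.21 and Fn1 -9.44, and epithelial genes Krt8 -3.12, Krt18 -10.84, Epcam -6.61, Cdh1 -8.52, Wfdc2 -3.44 and Ocln -2.58. The fitted values of Col3a1, 12.68, and Col6a1, 11.96, are against no count with PyMT-N cells, and that of Gpr171, -7.47, is against no count with PyMT-M cells, so none of them is a bound; that of Krt18 rests on 2 counts with PyMT-M cells. The 9 genes Csf2rb2, Clec4n, Cd44, Ccl6, Fas, Vim, Fn1, Col1a1, Cdh1 were called in opposite directions against neutrophils alone in the co-cultures, which share those control libraries. The calls of Ifit3, Pgd, Cxcr2, Csf3r, Alox5ap, Itgam, Fermt3, Itgb1, Csf1, Nfe2, Axl, Clec4d did not hold under every scaling.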

How the results depend on the processing

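The counts of genes called kept within 1.5 times their values under relative log expression, upper quartile, DESeq2 and no robust moderation. With library totals 1691 genes were lower in all, and 1712 expressed genes were higher and 1542 lower. With TMM from expressed genes the values were 1774, 1665 and 1621. With pan-leukocyte scaling 7355 genes were higher and 252 lower, 3860 and 193 of them expressed alone, and 2948 were higher and 1183 lower than with PyMT-N cells. A minimum of 50 counts in 3 libraries left 378 near absent genes higher, since fewer were tested. Against PyMT-N cells, limma-voom called 2705 higher and 2926 lower, a fit of only the groups compared 2391 higher, and an adjusted p under 0.01 left 709, beside 1384 and 1943. Class limits of 20 and 0.5 CPM left 557 expressed genes higher. Shares of counts with PyMT-M cells without mitochondrial genes were 89.8%, 7.65% and 2.57% for expressed, middle and near absent genes. The summed epithelial markers differed by 81.5 CPM without Lcn2 in place of -145. The cause of the changes with the tool and the scaling was not tested.

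Leaving out 1 library gave 2775 to 3662 genes higher and 2508 to 3694 lower, 813 to 1314 expressed genes higher and 2306 to 3221 lower, and 857 to 904 near absent genes higher. Against PyMT-N cells it gave 875 to 945 higher and 1518 to 1591 lower. The endothelial and platelet marker sum differed by -19.01 to 0.0426 CPM. Of the uncalled genes, the log2 change ranged from -0.20 to 0.39 for Il1rn, -0.52 to 0.77 for Cxcl2, -2.58 to 4.77 for Arg1 and -0.15 to 0.60 for Vegfa.

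Of the 126 genes named, 100 kept sign and call under pan-leukocyte scaling, 124 of the 125 with a value under DESeq2 (not C1qc), and 126 under relative log expression. Signs turned under pan-leukocyte scaling for Eef2 (0.93), Ccnd3 (0.60), Rps9 (0.66), Ltf (1.16, and 0.13 with library totals and 0.10 with TMM from expressed genes), Lcn2 (0.61), Cxcr2 (0.42), Csf3r (0.076), S100a8 (0.12), S100a9 (0.27), Ly6g (0.49), Cd44 (0.61) and Il1b (0.85). Under limma-voom they turned for Arg1 (-1.12) and Vegfa (-0.067). Krt18 was called lower without the second alone or the second PyMT-M library.

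A replicate block gave 3053 genes higher and 2768 lower, 960 and 2562 among expressed genes, 864 near absent genes higher, and 1154 and 1767 against PyMT-N cells; of the named genes it ended only the calls of Mrc1 (adjusted p = 0.059, edgeR) and C1qc (adjusted p = 0.092). Libraries that share a number showed no pairing, with correlations of deviations from -0.099 to 0.025. The third alone library had the fewest counts, 1641049, and a floor of 3 counts there is 2.25 CPM, which limits what can be said of genes near absent alone.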

Other observations

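Yap1, which had the highest mean with PyMT-M cells of the middle class, lies at chr9:7931999-8004596 (GRCm38), and its chromosomal neighbours were looked at after its value was seen. There were 19 tested protein-coding genes from the start of chromosome 9 to Yap1, without Yap1 itself. Of these, 7 were higher and 7 lower with PyMT-M than with PyMT-N cells, beside 11.5% and 16.2% of all genes tested. Against neutrophils alone 9 were higher and 4 lower, beside 27.1% and 25.8% of all genes tested. The next tested protein-coding genes beyond Yap1 begin only with Jrkl, at chr9:13242607, so they are not close neighbours. Of the next 13, 0 were higher and 3 lower than with PyMT-N cells, beside the same 11.5% and 16.2%. Whether the stretch differs as a region was not tested. The genes before Yap1 that were higher than with PyMT-N cells included Tmem123 (a membrane protein gene), with 283 against 70.02 normalised CPM, and Dcun1d5, a cullin neddylation factor, with 181 against 53.96. They also included Aasdhppt, which activates carrier proteins, with 47.1 against 11.1, and Alkbh8, a transfer RNA modifier, with 53.8 against 10.5. In neutrophils alone Tmem123, Dcun1d5, Aasdhppt and Alkbh8 had 159, 36.1, 4.93 and 14.7. The matrix metalloproteinase genes of the same stretch were lower with PyMT-M than with PyMT-N cells for Mmp3, with 3.63 against 286, Mmp12, with 3.51 against 93.7, and Mmp13, with 2.69 against 97.2, while Mmp8, the neutrophil collagenase, had 798 against 580.3 and passed no test (adjusted p = 0.19, edgeR's quasi-likelihood test).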
